A study of Mus musculus with 9 samples.

Results

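Lin-Sca1+cKit+ (LSK) cells that did not carry the GFP mark, but were sorted from the marrow of mice transplanted with cells given a GFP-marked retroviral transgene, were compared with LSK cells of control mice. The 6 arrays were chosen by their titles, 3 of GFP-negative cells and 3 of control cells, out of 9 arrays in all. The other 3 arrays hold GFP-positive LSK cells of such mice and entered the model only to share its estimate of the spread. All mice were C57BL/6. Lineage-negative donor marrow cells had been exposed to retroviral vectors in culture and injected into lethally irradiated recipients of the same strain. LSK cells were sorted 8 weeks after transplantation, and the marrow of 2 to 5 mice was pooled for each array. Control mice had received wild-type LSK cells in place of cells with the transgene. Whether control cells carried a vector is not stated in the labels, nor whether the GFP-negative and GFP-positive arrays of a number came from the same mice. They also name no marker that separates donor cells from cells of the recipient, so GFP-negative cells were defined here only by the absence of GFP.

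Hematopoietic stem cells (HSCs) renew the blood for life, and most of them rest in the marrow, held there by signals from cytokines and neighbouring cells. The LSK gate holds HSCs together with the multipotent progenitors that descend from them, so a bulk LSK sample changes when the mix of these cells changes as well as when single cells change. The question put by this comparison was what differed in such unmarked cells.

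Levels are log2 RMA values of probe sets, the groups of short probes that stand for a transcript, and differences are GFP-negative minus control on the log2 scale, where 1 is a doubling. Each gene was read from its brightest probe set, which left 18193 genes. Array medians lay between 4.52 and 4.64, and correlations among the 6 arrays compared between 0.906 and 0.958. Among these 6, control array 3 stood apart, with a limma array weight of 0.42 against 0.95 to 1.76 on the others. In the GFP-positive group, which shares the fit, the weights were 2.85, 0.37 and 0.74 on arrays 1, 2 and 3. Signal near the 3′ end of Gapdh exceeded signal near its 5′ end by 3.87 on control array 3, by 2.68 to 2.89 on the other arrays compared, and by 2.80, 3.22 and 2.47 on the GFP-positive arrays. In pooled bulk RNA, fewer cells of a type and less RNA per cell cannot be told apart.

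No probe set passed the adjusted threshold of 0.05 in limma: 0 of 45037 (0% of those tested) differed between GFP-negative and control cells, and the smallest adjusted p was 0.314. At an unadjusted p under 0.05, 1151 probe sets were higher (2.56%) and 1104 lower (2.45%) in GFP-negative cells. By gene, 419 were higher (2.3% of all) and 516 lower (2.84% of all), 935 together (5.14%). All GFP-negative arrays lay above all control arrays in 721 genes (3.96%) and below them in 1144 genes (6.29%), 1865 together (10.3%). The median difference over all genes was -0.057, and 7846 genes (43.1%) were higher against 10345 (56.9%) lower. That median was -0.023 without control array 3 and -0.089 without control array 2. Differences of at least 1 were seen in 556 higher and 395 lower genes, and differences of at least 3 in 12 higher and 0 lower genes. Calls at the unadjusted threshold were rarer among dim genes. With genes in 3 equal classes by level, 0.709% of the dimmest were higher and 1.62% lower, against 3.56% and 3.63% of the brightest. Every difference below is therefore a measured difference that did not pass the adjusted test. Errors are standard errors (SE) of the fit.

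**Figure D1:**
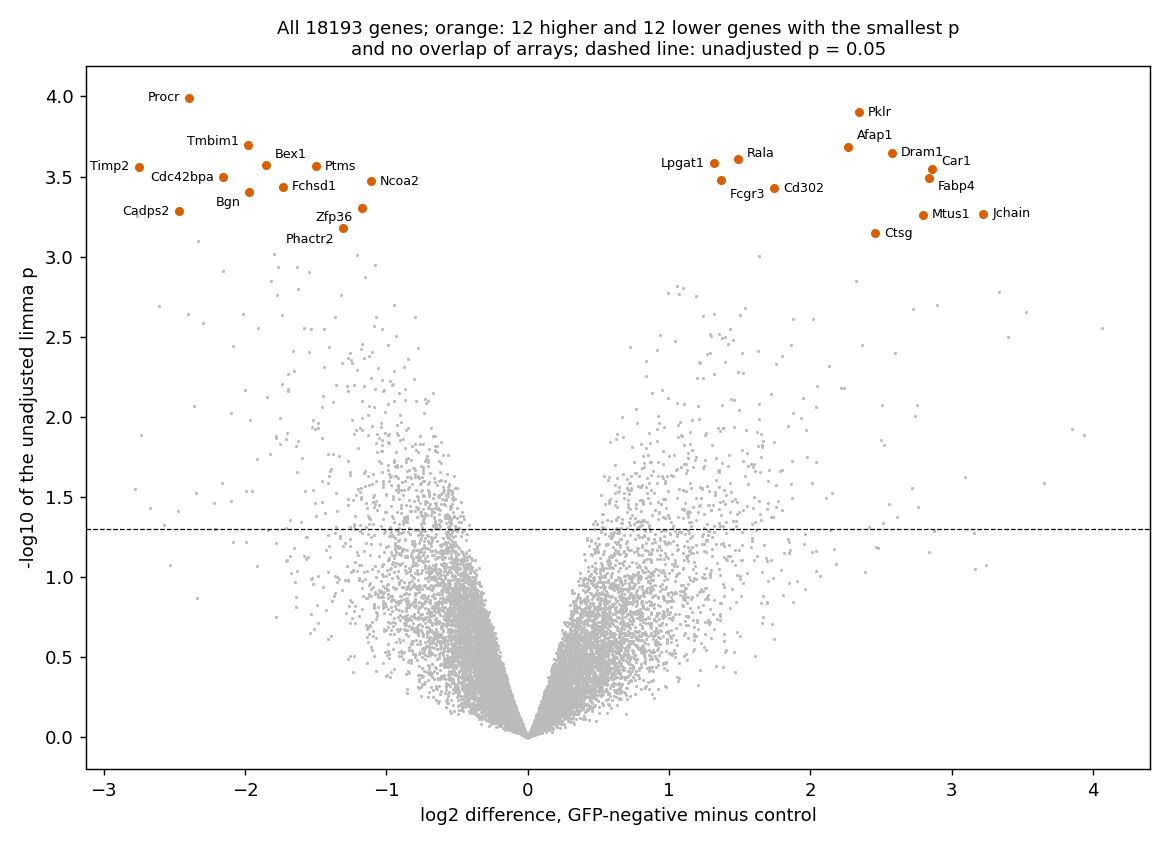
Each point is 1 of 18193 genes, with its log2 difference (GFP-negative minus control) on the x axis and -log10 of its unadjusted limma p on the y axis. The 12 higher and 12 lower genes with the smallest p and no overlap of arrays are named in orange; none passed the adjusted threshold, and the dashed line marks an unadjusted p of 0.05.

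Among the 12 higher genes with the smallest p, Pklr encodes the pyruvate kinase of red cells and liver. It measured 5.25, 5.73 and 5.70 on control arrays 1, 2 and 3 and 8.33, 8.02 and 7.36 on the GFP-negative arrays, a difference of 2.34 ± 0.36 (SE; limma adjusted p = 0.526). Car1, a carbonic anhydrase of early red cell precursors, measured 6.12, 6.88 and 4.89 in controls and 9.29, 8.47 and 8.71 in GFP-negative cells. Every GFP-negative array of both genes lay at least 1.59 above every control array. Ctsg, a serine protease of neutrophil primary granules, Fcgr3, an Fc gamma receptor of myeloid cells, and Cd302, a C-type lectin of myeloid cells, were also in this set, at 2.46 ± 0.48, 1.37 ± 0.24 and 1.74 ± 0.31. Fcgr3 had the same value, 6.86, on all GFP-negative arrays, a tie that RMA can produce and that makes its spread look small. Jchain, which joins the subunits of secreted immunoglobulins, had the largest difference of the set, 3.22 ± 0.61, with 4.47, 3.85 and 5.43 in controls and 8.83, 7.00 and 7.60 in GFP-negative cells. Dram1, a regulator of autophagy and a p53 target, differed by 2.58 ± 0.43, and Fabp4, a fatty acid binding protein of fat, endothelium and macrophages, by 2.84 ± 0.50. The remaining members were Afap1 and Mtus1, which act at the cytoskeleton, the small GTPase Rala and the acyltransferase Lpgat1. They differed by 2.27 ± 0.37, 2.80 ± 0.53, 1.49 ± 0.25 and 1.32 ± 0.22. Of 20 p53 targets, Dram1 among them, 6 were higher and 14 lower (70%, against 56.9% of all genes). Their median was -0.087 (-0.30 to 0.030 with 1 array left out), against -0.057 over all genes. Without control array 1, 11 were higher and 9 lower. Of 20 lysosome and autophagy genes 7 were higher and 13 lower (65%, against the same 56.9%), with a median of -0.17.

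Procr, the endothelial protein C receptor that marks HSCs, had the smallest p of all named genes. It measured 7.57, 7.85 and 8.69 in controls and 5.56, 5.93 and 5.43 in GFP-negative cells, a difference of -2.40 ± 0.36 (limma adjusted p = 0.526). The lowest control array was 1.65 above the highest GFP-negative array. Timp2, an inhibitor of metalloproteinases, and Bgn, a matrix proteoglycan, differed by -2.75 ± 0.47 and -1.97 ± 0.35. Zfp36, an RNA-binding protein that destabilises inflammatory mRNAs, differed by -1.17 ± 0.22. Tmbim1 and Bex1 differed by -1.98 ± 0.32 and -1.85 ± 0.31, and the secretion factor Cadps2 by -2.47 ± 0.46. Cdc42bpa, a kinase that acts downstream of the GTPase Cdc42, Ncoa2, a coactivator of nuclear receptors, and Ptms, Fchsd1 and Phactr2 made up the rest, at -2.15 to -1.11. The probe set decided several of these values. Averaged over a gene's probe sets, Phactr2 differed by -0.0041, Ncoa2 by -0.31, Timp2 by -0.75, Cdc42bpa by -0.86 and Bgn by -1.24. Among the higher genes the same average gave 0.77 for Rala, 0.81 for Afap1, 0.82 for Lpgat1, 0.99 for Cd302, 1.09 for Pklr, 1.09 for Fabp4 and 1.37 for Mtus1.

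**Figure D2:**
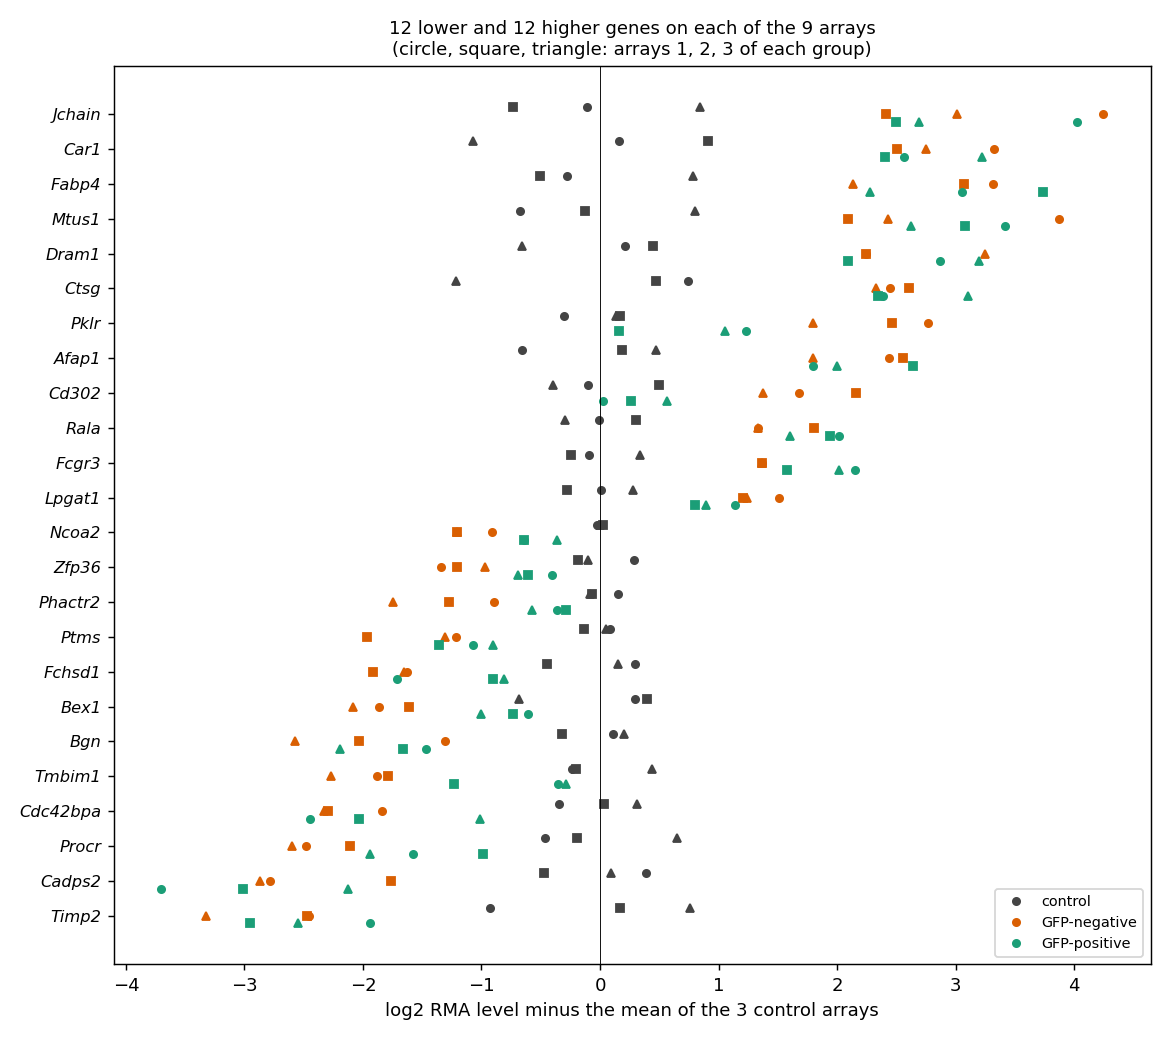
The 12 higher and 12 lower genes are shown on each of the 9 arrays as the log2 level minus the mean of the 3 control arrays, with circle, square and triangle for arrays 1, 2 and 3 of a group. GFP-negative arrays (orange) lie apart from control arrays (grey) in each gene, as the choice of genes required. The 3 GFP-negative points of Fcgr3 coincide.

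Genes of HSC identity, the transcription factors and surface proteins by which stem cells are recognised, were mostly lower in GFP-negative cells. Of 28 measured members, 23 were lower and 5 higher, and the median difference was -0.38. The mean level of the list was 6.87, 7.00 and 6.92 on the control arrays and 6.27, 6.38 and 6.28 on the GFP-negative arrays. The groups did not overlap, and the arrays within each group lay within 0.13 of each other. At an unadjusted p under 0.05, 7 members (25%) were lower and 0 higher, and in 9 (32.1%) all GFP-negative arrays lay below all controls. Over all genes the shares lower and wholly below were 2.84% and 6.29%. Without control array 2, 2 members were lower at that threshold, and 3, 4 and 3 without GFP-negative arrays 1, 2 and 3. Without control array 3 the median was -0.58.

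Mycn, a MYC family factor of stem cells, measured 9.39, 8.82 and 8.72 in controls and 6.96, 7.66 and 6.79 in GFP-negative cells, a difference of -1.84 ± 0.81. Its GFP-positive arrays, which enter the SE, measured 6.21, 3.60 and 7.39. All GFP-negative arrays lay below all controls. Of its 3 probe sets 2 differed by -1.84 and -2.07, and the other by -0.05. Angpt1, which encodes the ligand of the receptor Tek, measured 9.08, 9.46 and 8.52 in controls and 7.82, 8.35 and 8.14 in GFP-negative cells, and its groups did not overlap either. Egr1, a zinc finger factor that is also an immediate early gene, differed by -1.48 ± 0.47, and Erg, an ETS factor of the stem cell circuit, by -0.88 ± 0.37. Prdm16, a regulator needed for HSC maintenance, differed by -1.24 ± 0.49, but GFP-negative array 3 (6.36) lay above the lowest control (6.28), and averaged over probe sets the difference was -0.62 (-0.80 without GFP-negative array 2). Myct1 differed by -1.68 ± 0.71, with 6.09 on GFP-negative array 3 against 8.39 and 8.28 on the other GFP-negative arrays (-0.93 without array 3). Runx1, a factor of stem and progenitor cells, was below all controls on every GFP-negative array, at -0.35 ± 0.26 (-0.15 without GFP-negative array 1), and all 6 of its probe sets were lower. The stem cell regulators Mecom and Hlf differed by less than their SE, at -0.30 ± 0.39 (-0.15 without control array 1) and -0.35 ± 0.67 (-0.15 without control array 3, -0.66 averaged over probe sets). These SEs take in single low GFP-positive arrays outside the comparison. GFP-positive arrays 1, 2 and 3 measured 5.73, 6.95 and 7.33 for Mecom and 8.72, 5.96 and 8.77 for Hlf.

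Tek, Esam and Procr are receptors and adhesion molecules that HSCs share with endothelium. Esam measured 6.10, 5.62 and 6.27 in controls and 5.38, 4.67 and 4.00 in GFP-negative cells, a difference of -1.31 ± 0.35. Tek measured 5.11, 6.06 and 6.81 in controls and 4.99, 2.03 and 2.94 in GFP-negative cells, a difference of -2.68 ± 1.09. In both genes all GFP-negative arrays lay below all controls, for Tek by 0.12 between GFP-negative array 1 and control array 1. Other endothelial genes did not all share this direction. Emcn, endomucin, differed by -1.82 ± 0.62, with control array 3 (4.59) at the level of the GFP-negative arrays. Pecam1, an adhesion molecule of endothelium and blood cells, was higher in GFP-negative cells, at 7.53, 8.39 and 7.46 against 6.68, 6.52 and 6.22. Of 18 endothelial and stromal genes 11 were higher and 7 lower, with a median of 0.04 that ranged from -0.036 (without control array 2) to 0.20 (without control array 3). Among 17 HOX, MEIS and PBX genes, the homeobox factors of stem and progenitor cells, 13 were lower and 4 higher. Hoxb5 was the 1 member (5.88%) lower at an unadjusted p under 0.05, against 2.84% of all genes. It differed by -0.70 ± 0.29 (-0.42 without control array 2). The median of the list was -0.30, or -0.14 without control array 3 or GFP-negative array 1.

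**Figure D3:**
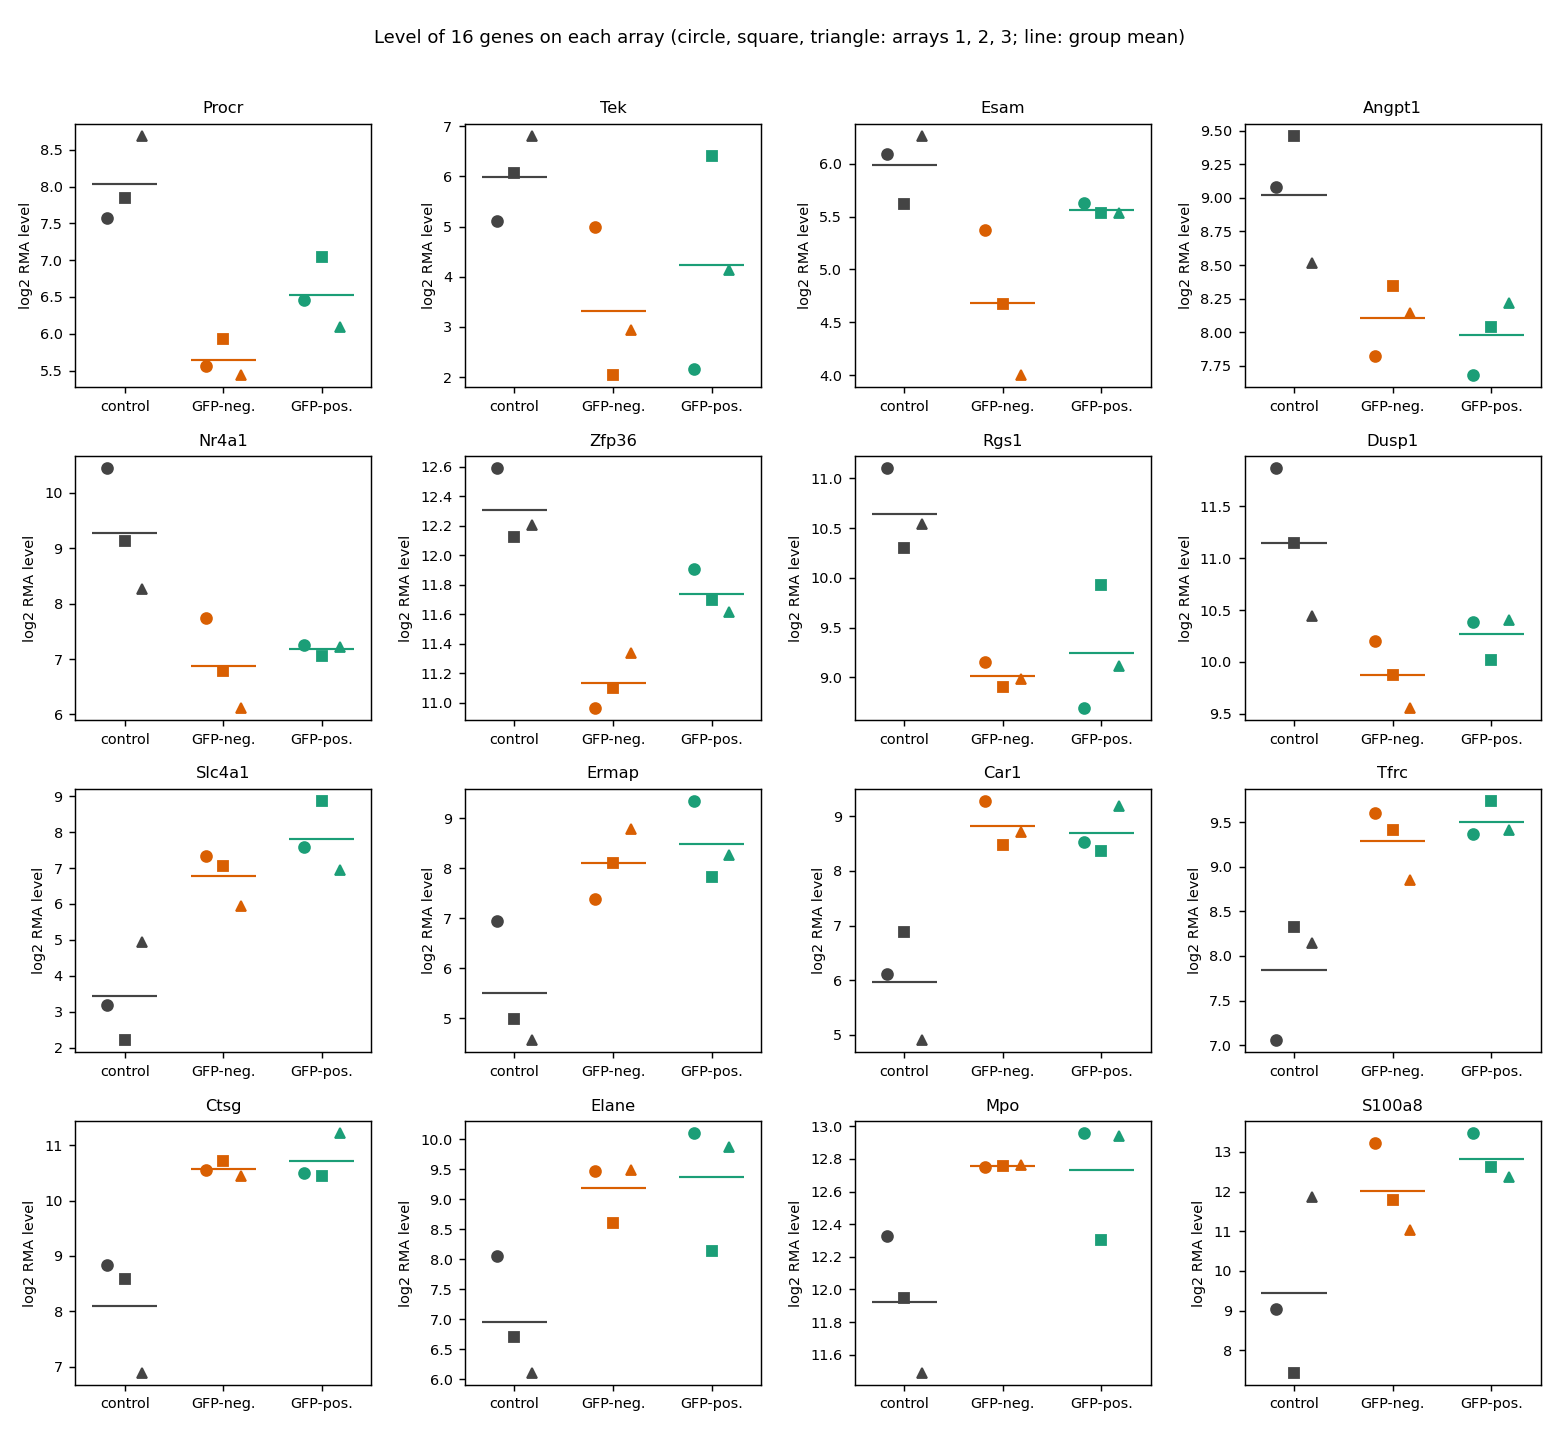
The log2 RMA level of 16 genes is plotted on each of the 9 arrays, with circle, square and triangle for arrays 1, 2 and 3 and a line at the group mean; the y axes do not start at 0. The upper 2 rows hold stem cell and immediate early genes, where GFP-negative arrays lie below controls, and the lower 2 rows red cell and granule genes, where they lie above, except S100a8, where control array 3 (11.87) lies among them.

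Immediate early genes are switched on within minutes when a cell is stimulated and need no new protein for it. Many of their promoters hold a cyclic AMP response element (CRE), bound by CREB and ATF proteins, or a CArG box, bound by serum response factor. The promoter windows of 3 members whose GFP-negative arrays all lay below controls are shown because they hold such an element. They are the 250 bases before the gene's start in RefSeq (GRCm38.p6), on the gene's strand: Dusp1 at chr17:26508473-26508722 (minus strand), Ppp1r15a at chr7:45526269-45526518 (minus strand) and Zfp36 at chr7:28379229-28379478 (minus strand). Capitals mark the CRE in Dusp1 and Ppp1r15a and the CArG box in Zfp36, which begin 143, 12 and 58 bases before the start.
Dusp1: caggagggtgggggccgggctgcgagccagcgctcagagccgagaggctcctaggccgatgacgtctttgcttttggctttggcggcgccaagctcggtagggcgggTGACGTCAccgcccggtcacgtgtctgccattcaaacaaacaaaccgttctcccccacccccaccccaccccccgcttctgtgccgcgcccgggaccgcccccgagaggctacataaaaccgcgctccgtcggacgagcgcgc
Ppp1r15a: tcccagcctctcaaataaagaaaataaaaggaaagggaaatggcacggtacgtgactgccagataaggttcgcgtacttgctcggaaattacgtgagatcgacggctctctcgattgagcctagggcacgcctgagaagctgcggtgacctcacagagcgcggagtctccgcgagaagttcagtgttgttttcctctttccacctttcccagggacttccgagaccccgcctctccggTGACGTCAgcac
Zfp36: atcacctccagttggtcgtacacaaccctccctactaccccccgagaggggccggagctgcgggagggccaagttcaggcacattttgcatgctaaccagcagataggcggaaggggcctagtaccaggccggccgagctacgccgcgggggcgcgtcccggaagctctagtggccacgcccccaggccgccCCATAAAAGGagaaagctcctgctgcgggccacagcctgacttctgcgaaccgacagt
The CRE was searched as TGACGTCA, which reads the same on both strands. It was in 4 of 37 windows (10.8%) of the 29 immediate early genes with a window and in 1.55% of all 32851 windows. The CArG box was in 6 of these windows (16.2%) and in 1.47% of all windows. The 6 windows belonged to only 3 genes, among them Zfp36 and Egr2, and Egr2 was higher in GFP-negative cells. Such matches describe the sequence and do not show that a factor binds there.

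The 20 immediate early transcription factors measured were nearly all lower in GFP-negative cells. Of these, 19 were lower and 1, the dim Egr2, was higher by 0.44 ± 0.35 (0.77 without GFP-negative array 1 and 0.26 without array 3). The median difference was -0.71. At an unadjusted p under 0.05, 7 (35%) were lower, against 2.84% of all genes. Nr4a1, an orphan nuclear receptor, measured 10.44, 9.13 and 8.27 on control arrays 1, 2 and 3 and 7.74, 6.78 and 6.12 on the GFP-negative arrays, a difference of -2.40 ± 0.56. All GFP-negative arrays lay below all controls, although the controls themselves spanned 2.17. Klf6 measured 11.35, 10.73 and 10.48 in controls and 9.91, 9.63 and 9.49 in GFP-negative cells, and all 5 of its probe sets were lower. Jun, a subunit of the AP-1 factor, differed by -0.98 ± 0.31 and its partner Fos by -0.92 ± 0.63. The arrays of Jun did not overlap, whereas those of Fos did, at 12.22, 11.14 and 10.28 in controls and 11.16, 10.19 and 9.53 in GFP-negative cells. Fos differed by -0.42 without control array 1, -0.54 without GFP-negative array 3 and -1.39 without control array 3. Myc, a factor that also responds to growth signals, stood at -0.11 ± 0.20, within its SE (-0.072 without GFP-negative array 1, -0.18 without array 3).

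The feedback side of the same response encodes phosphatases, regulators of G protein signalling and proteins that degrade mRNA. Of 16 measured members 14 were lower and 2 higher, with a median of -0.47. At an unadjusted p under 0.05, 4 (25%) were lower, against 2.84% of all genes. Zfp36 measured 12.59, 12.12 and 12.21 in controls and 10.97, 11.10 and 11.34 in GFP-negative cells. Rgs1, a regulator of G protein signalling, measured 11.10, 10.30 and 10.54 in controls and 9.15, 8.91 and 8.98 in GFP-negative cells, a difference of -1.63 ± 0.34. In both genes every GFP-negative array lay below every control array, and the smallest gap was 0.79 in Zfp36 and 1.15 in Rgs1. Dusp1, a phosphatase that inactivates MAP kinases, differed by -1.27 ± 0.36, and Ppp1r15a, which restores translation after stress, by -0.87 ± 0.33. Gadd45b and Dusp6 were the higher members, at 0.67 ± 0.41 and 0.53 ± 0.32 (0.24 and 0.35 without GFP-negative array 1).

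Control array 1 was the highest control in both immediate early lists. The factors averaged 8.32, 7.64 and 7.57 on control arrays 1, 2 and 3 and 7.31, 7.03 and 7.13 on the GFP-negative arrays. The feedback genes averaged 8.84, 8.36 and 8.16 in controls and 7.94, 7.94 and 7.95 in GFP-negative cells. Both lists were below every control on every GFP-negative array, and the feedback genes hardly varied among GFP-negative arrays. Without control array 1 the median of the factors was -0.39 with 3 members lower at an unadjusted p under 0.05, and without GFP-negative array 2 there were 4. Without control array 3 the feedback genes had 8 such members.

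**Figure D4:**
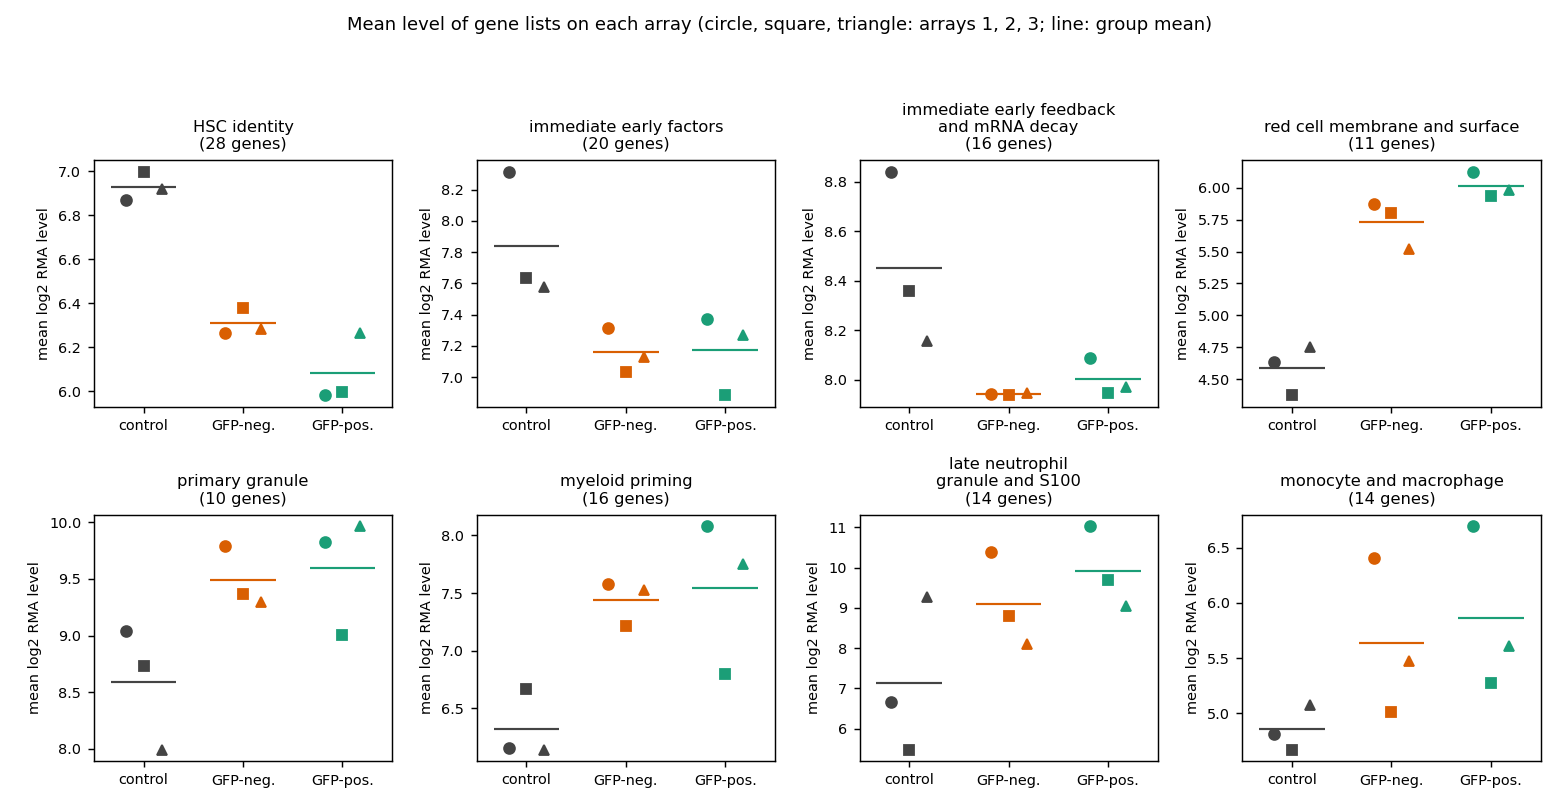
The mean log2 RMA level over the measured genes of 8 lists is plotted on each array, with circle, square and triangle for arrays 1, 2 and 3 and a line at the group mean; the y axes do not start at 0. In 6 lists the GFP-negative arrays lie wholly above or below the controls, while in the late neutrophil list control array 3 (9.27) lies among the GFP-negative arrays and in the monocyte list GFP-negative array 2 (5.01) lies below control array 3 (5.07).

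Red cell membrane and surface genes, which are switched on as erythroid precursors mature, were higher. Many of them are targets of GATA1 and KLF1. The promoter windows of Ermap and Rhd are shown because their GFP-negative arrays all lay above controls and their windows hold a GATA site, marked in capitals. They were taken as above from RefSeq (GRCm38.p6), Ermap at chr4:119189996-119190245 (minus strand) and Rhd at chr4:134864286-134864535 (plus strand). The sites begin 67 and 43 bases before the start, and that of Ermap is read on the opposite strand.
Ermap: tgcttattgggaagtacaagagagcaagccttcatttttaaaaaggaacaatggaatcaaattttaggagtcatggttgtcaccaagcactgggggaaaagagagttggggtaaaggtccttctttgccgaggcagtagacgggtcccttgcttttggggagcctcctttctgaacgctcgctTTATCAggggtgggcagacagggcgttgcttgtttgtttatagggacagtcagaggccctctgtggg
Rhd: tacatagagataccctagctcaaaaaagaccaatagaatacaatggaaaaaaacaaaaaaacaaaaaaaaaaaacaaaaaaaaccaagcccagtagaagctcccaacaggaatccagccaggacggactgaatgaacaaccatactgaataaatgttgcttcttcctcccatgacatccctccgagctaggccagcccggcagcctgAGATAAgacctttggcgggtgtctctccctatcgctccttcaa
The site was searched as AGATAA and TGATAA on both strands. It was in 12 of 24 windows (50%) of the 19 red cell membrane and early erythroid genes with a window and in 16.6% of all windows.

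Of 11 red cell membrane and surface genes 10 were higher and 1 lower in GFP-negative cells, with a median of 1.26. The mean level of the list was 4.63, 4.37 and 4.75 on the control arrays and 5.87, 5.80 and 5.52 on the GFP-negative arrays, without overlap. At an unadjusted p under 0.05, 6 members (54.5%) were higher, and in the same number all GFP-negative arrays lay above all controls. Over all genes these shares were 2.3% and 3.96%. Slc4a1 (band 3), which exchanges chloride for bicarbonate, measured 3.19, 2.20 and 4.94 in controls and 7.34, 7.05 and 5.94 in GFP-negative cells, a difference of 3.33 ± 0.74. Its other probe sets differed by 1.94 and -0.0023. Ermap, a membrane protein that carries the Scianna antigens, measured 6.95, 4.99 and 4.56 in controls and 7.39, 8.11 and 8.79 in GFP-negative cells, a difference of 2.60 ± 0.67. Ank1, which ties the membrane to the spectrin skeleton, differed by 1.26 ± 0.40 (0.52 averaged over probe sets), and Rhd, of the Rh complex, by 0.92 ± 0.30. Kel and Rhag, also surface proteins of red cells, differed by 1.43 ± 0.53 and 1.38 ± 0.55 at levels near the bottom of the scale (0.94 and 0.82 without GFP-negative array 1). Sptb, a spectrin chain, was the lower member, at -0.42 ± 0.31 (-0.26 without GFP-negative array 2).

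Earlier erythroid genes split. Of 15 early erythroid regulators and enzymes 8 were higher and 7 lower, with a median of 0.08 that had no fixed sign (-0.23 without GFP-negative array 2 and 0.19 without GFP-negative array 1). Tfrc, the transferrin receptor that brings in iron, measured 7.05, 8.32 and 8.14 in controls and 9.61, 9.41 and 8.86 in GFP-negative cells, a difference of 1.45 ± 0.36, and all 3 of its probe sets were higher. With Car1 it was 1 of the 2 members (13.3%) higher at an unadjusted p under 0.05, against 2.3% of all genes. Lmo2, a partner of the factor Tal1 in stem and erythroid cells, was the 1 member (6.67%) lower at that threshold. Of all genes, 2.84% were. Lmo2 measured 11.21, 11.22 and 11.48 in controls and 10.63, 10.54 and 10.78 in GFP-negative cells. The factors Klf1 and Gata1 overlapped between groups, at 1.31 ± 0.62 and 0.90 ± 0.68, and without control array 3 they differed by 0.75 and 0.37. Without GFP-negative array 3 Gata1 differed by 0.47. Heme synthesis enzymes, of which 8 of 10 were higher, had a median of 0.28, and 0 members were below an unadjusted p of 0.05. Alas2, the erythroid enzyme that opens the pathway, was at 0.88 ± 0.69 (0.45 without GFP-negative array 1).

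Primary granule genes, the first neutrophil granule proteins to be made and already active in granulocyte-monocyte progenitors, were higher in 8 of 10 members, with a median of 0.68. Of these, 5 (50%) were higher at an unadjusted p under 0.05, and the same number had all GFP-negative arrays above all controls. The corresponding shares of all genes were 2.3% and 3.96%. Ctsg measured 8.84, 8.58 and 6.89 in controls and 10.55, 10.71 and 10.43 in GFP-negative cells. Elane, neutrophil elastase, measured 8.05, 6.69 and 6.10 in controls and 9.48, 8.61 and 9.48 in GFP-negative cells, a difference of 2.24 ± 0.63. Mpo, myeloperoxidase, was already bright, at 12.33, 11.95 and 11.49 in controls and 12.75, 12.76 and 12.76 in GFP-negative cells. In these 3 genes control array 3 was the lowest array and control array 1 the highest control. The adaptor subunit Ap3s1 differed by 1.10 ± 0.24, and Prtn3, proteinase 3, by 0.45 ± 0.32 with overlap (0.28 without control array 3). Without control array 3 the median of the list was 0.45, and 3 members were higher at an unadjusted p under 0.05.

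Myeloid priming genes, receptors, adaptors and factors that mark progenitors turning to the granulocyte and monocyte lines, were higher in 14 of 16 members, with a median of 1.19. At an unadjusted p under 0.05, 8 (50%) were higher and 1 (6.25%) lower, and in 8 all GFP-negative arrays lay above all controls. The shares of all genes were 2.3% higher, 2.84% lower and 3.96% wholly above. The mean level of the list was 6.16, 6.67 and 6.14 on the control arrays and 7.58, 7.22 and 7.52 on the GFP-negative arrays, so the groups did not overlap. Ms4a3, a membrane protein of granulocyte-monocyte progenitors, measured 5.10, 6.06 and 4.96 in controls and 7.82, 7.89 and 7.37 in GFP-negative cells, a difference of 2.33 ± 0.51. Ly86, which accompanies the receptor CD180, measured 3.91, 4.07 and 3.69 in controls and 6.09, 6.88 and 6.88 in GFP-negative cells. Irf8, the factor of monocyte and dendritic cell progenitors, differed by 1.62 ± 0.52 (1.07 without control array 3 and 0.81 averaged over probe sets). The inhibitory Fc receptor Fcgr2b was higher in all 5 of its probe sets, by 1.70 ± 0.63 in the brightest (0.84 averaged over them). Csf1r, the receptor for macrophage colony-stimulating factor, differed by 3.16 ± 1.66 in its brightest probe set, by 0.39 and -0.03 in its other probe sets and by 1.18 averaged over them. Gfi1, a repressor that keeps HSCs quiescent and drives neutrophil fate, was the member lower at the unadjusted threshold, at -1.13 ± 0.42. Its controls measured 8.43, 9.31 and 10.29 and its GFP-negative arrays 8.23, 7.93 and 8.49, and without control array 3 it differed by -0.65. Without control array 2, 5 members of the list were higher at the unadjusted threshold.

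Late neutrophil genes, made in cells past the progenitor stage, were higher by point estimate in 14 of 14 members, with a median of 2.00. In 0 of them did the groups separate, whereas 3.96% of all genes lay wholly above controls. S100a8, a calcium-binding protein of mature neutrophils, measured 9.04, 7.43 and 11.87 on control arrays 1, 2 and 3 and 13.22, 11.78 and 11.02 on the GFP-negative arrays. Lcn2, the iron-binding protein lipocalin, measured 5.17, 3.47 and 8.30 in controls and 10.04, 8.21 and 7.99 in GFP-negative cells. Control array 3 was the highest control of both genes and lay among the GFP-negative arrays. The mean level of the list was 6.65, 5.48 and 9.27 in controls and 10.39, 8.80 and 8.11 in GFP-negative cells. Without control array 3 the median was 3.28, and 12 members and 358 of all 18193 genes were higher at an unadjusted p under 0.05. With all arrays 4 members (28.6%) were, against 2.3% of all genes. Without control array 2 the median was 1.17 with 0 such members, and leaving out control array 1 or GFP-negative array 1 also left 0. Without GFP-negative array 2 there was 1 such member. The differences of S100a8 and Lcn2 were 2.56 ± 1.02 and 3.10 ± 1.13, and 1.55 and 2.01 without control array 2. The primary granule and myeloid priming levels of control array 3, in contrast, were the lowest of the controls.

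Among markers of other cells that the gate could hold, those of monocytes, mast cells and B cells moved with these genes on GFP-negative array 1. The 14 monocyte and macrophage genes averaged 6.41 there, against 5.01 and 5.47 on GFP-negative arrays 2 and 3 and 4.67 to 5.07 on the controls. Of these genes 10 were higher and 4 lower, with a median of 0.90, or 0.48 without GFP-negative array 1. At an unadjusted p under 0.05, 3 (21.4%) were higher, against 2.3% of all genes, and 1 without GFP-negative array 1 or control array 2. Ccr2, the chemokine receptor of monocytes, was higher on every GFP-negative array, at 5.53, 5.82 and 5.73 against 4.29, 3.68 and 4.54 in controls (a difference of 0.53 averaged over probe sets). Adgre1, the macrophage antigen F4/80, measured 5.07 on GFP-negative array 1 and 1.38 to 2.56 on the other 5 arrays, near the bottom of the scale. Mast cell and basophil genes were higher in 8 of 9 members, with a median of 0.81 and Mcpt8, a basophil protease, at 1.14 ± 0.39. Without GFP-negative array 1 that median was 0.47. B cell genes were higher in 10 of 12 members, with a median of 0.65 and 1, the B cell adaptor Bank1 (8.33%), below an unadjusted p of 0.05. The B cell median was 0.17 without GFP-negative array 1 and 0.28 without control array 2. Pax5, the factor that commits cells to the B line, overlapped between groups, at 3.83 to 4.91 in controls and 4.00 to 5.43 in GFP-negative cells. Among GFP-negative arrays, primary granule genes (9.79, 9.37 and 9.30) and megakaryocyte genes (5.58, 5.26 and 4.98) were also highest on array 1. The lists of T and NK cells and of dendritic cells did not peak on that array. On GFP-negative arrays 1, 2 and 3, T and NK cell genes averaged 4.61, 4.67 and 4.62, against 4.39, 4.33 and 4.47 in controls. Dendritic cell and MHC class II genes averaged 5.92, 6.11 and 5.88 there, against 5.74, 5.78 and 5.65 in controls. In both lists every GFP-negative array lay above every control array. The part of all such cells in the results above was not tested.

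Megakaryocyte and platelet genes are active in the cells that shed platelets. They were lower in 13 of 18 members (72.2%, against 56.9% of all genes), with a median of -0.39 (-0.22 without control array 3). Gng11, a G protein subunit abundant in platelets, measured 6.06, 5.24 and 5.29 in controls and 4.36, 3.88 and 4.39 in GFP-negative cells, a difference of -1.32 ± 0.30. Itga2b, the integrin CD41 of platelets and early progenitors, measured 7.75, 7.94 and 7.59 in controls and 7.01, 6.95 and 6.72 in GFP-negative cells, a difference of -0.87 ± 0.25. In both genes the groups did not overlap, and they were the 2 members (11.1%) below an unadjusted p of 0.05. Of all genes, 2.84% were lower at that threshold. Vwf, von Willebrand factor, which also marks platelet-biased HSCs, was dim and differed by -0.51 ± 0.26, with overlap (-0.30 without control array 2). Pf4, platelet factor 4, differed by -0.89 ± 0.79 (-0.25 without control array 2 and -1.37 without control array 1).

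Feedback genes of the JAK-STAT pathway, through which many cytokine receptors signal, did not share a direction, with 9 of 17 higher, 8 lower and a median of 0.01. At an unadjusted p under 0.05, 3 (17.6%) were lower, against 2.84% of all genes, and 1 without control array 1 or GFP-negative array 1. Cish, a STAT5 target that dampens cytokine receptors, measured 6.14, 6.26 and 5.11 in controls and 4.62, 4.70 and 4.50 in GFP-negative cells, a difference of -1.23 ± 0.34. Socs2, another inhibitor induced by STAT5, differed by -2.16 ± 0.80, was lower in all 6 of its probe sets, and differed by -0.75 on average over them. Both lay below every control on every GFP-negative array, while Socs2 was dim, at 2.36 to 2.97 in GFP-negative cells. Mcl1, a survival factor of the BCL2 family, was also lower in all 6 probe sets, by -0.61 ± 0.24 in the brightest (-0.40 without control array 3). Sh2b3, an adaptor that restrains cytokine receptor signalling, was the 1 member (5.88%) higher at an unadjusted p under 0.05, against 2.3% of all genes. It measured 5.50, 7.10 and 6.70 in controls and 7.42, 8.92 and 7.14 in GFP-negative cells. Its difference was 1.39 ± 0.53, or 0.84 without GFP-negative array 2 and 0.92 without control array 1.

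The NF-kB pathway and its chemokines are switched on quickly by stimulated immune cells. Of 19 such genes 13 (68.4%) were lower, against 56.9% of all genes, with a median of -0.24. That median was -0.018 without control array 1, -0.61 without control array 2 and -0.37 without GFP-negative array 1. Tnfaip3, the deubiquitinase A20 that ends NF-kB signalling, measured 7.85, 6.63 and 6.02 in controls and 5.40, 5.30 and 4.69 in GFP-negative cells. The chemokine gene Ccl4 measured 7.74, 7.05 and 6.92 in controls and 5.56, 6.19 and 6.77 in GFP-negative cells. Both were below all controls on every GFP-negative array and were the 2 members (10.5%) lower at an unadjusted p under 0.05. The share of all genes lower at that threshold was 2.84%. Without control array 2, 5 members were lower at that threshold, and without control array 1, 1 was lower and 1 higher. Interferon response genes were lower in 15 of 22 members (68.2%, against the same 56.9%), with a median of -0.25. In this list 0 members were below an unadjusted p of 0.05. TGF-beta signalling genes were lower in 19 of 25 members (76%), with 0 members below that threshold. Their median was -0.20 (-0.13 without GFP-negative array 1, -0.30 without control array 3). Leaving out 1 array brought up to 2 interferon response genes below the threshold, all of them lower. Without GFP-negative array 3, 2 TGF-beta genes were lower and 1 higher at the threshold. Of all 18193 genes, 467 were lower and 425 higher at that setting.

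Cell cycle genes leaned higher. Of 27 G2/M and mitosis genes 23 were higher and 4 lower, with a median of 0.31. At an unadjusted p under 0.05, 2 (7.41%) were higher, against 2.3% of all genes. Prc1, which bundles microtubules in dividing cells, measured 7.36, 7.94 and 5.18 in controls and 8.34, 8.71 and 9.04 in GFP-negative cells, a difference of 1.87 ± 0.65. Ccna2, cyclin A, differed by 0.72 ± 0.27 (1.11 averaged over probe sets). The mean level of the list was 8.10, 8.06 and 7.09 on control arrays 1, 2 and 3 and 8.20, 8.16 and 8.24 on the GFP-negative arrays, with control array 3 lowest. Without that array the median was 0.11, 18 members were higher and Prc1 differed by 1.05. Without control array 1 or 2 the median was 0.53 or 0.59, and 5 members were below an unadjusted p of 0.05. Mki67, the proliferation antigen, was at -0.19 ± 0.21 (-0.11 without GFP-negative array 1). Oxidative phosphorylation genes behaved likewise, with 23 of 33 higher and a median of 0.28, which was 0.013 without control array 3 and 0.45 without control array 2. Among G1/S genes 19 of 27 were higher, with a median of 0.19 (0.081 without control array 3, 0.34 without GFP-negative array 1), and the cyclin Ccne1 did not overlap, at 6.18, 5.79 and 5.79 in controls and 6.35, 7.06 and 7.17 in GFP-negative cells. Cdkn1c, the CDK inhibitor p57 of quiescent HSCs, was dim and differed by -0.36 ± 0.28 (-0.13 without control array 2, -0.23 without GFP-negative array 2).

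Early lymphoid and homing genes gave single large differences. Of 19 genes of multipotent and lymphoid-primed progenitors 13 were higher, with a median of 0.23 (0.018 without GFP-negative array 2). Rag2, of the recombinase that rearranges antigen receptors, measured 5.20, 4.65 and 4.67 in controls and 6.53, 7.02 and 5.89 in GFP-negative cells, a difference of 1.64 ± 0.34 without overlap. Notch1, the receptor for T cell fate, differed by 1.09 ± 0.38, and Il12rb1, an interleukin receptor chain, by -1.18 ± 0.46 (-0.63 without control array 1). Itgal, the integrin chain CD11a that rises as HSCs become progenitors, measured 6.47, 7.12 and 6.34 in controls and 7.39, 8.17 and 8.49 in GFP-negative cells. Cxcr4, the receptor that holds cells in the marrow, differed by 0.72 ± 0.28. The groups of both genes did not overlap. Of 18 adhesion and homing genes, however, 8 were higher and 10 lower, with a median of -0.08. It ranged from -0.28 (without control array 2) to 0.033 (without GFP-negative array 3). At an unadjusted p under 0.05, 3 (16.7%) were higher and 2 (11.1%) lower, against 2.3% and 2.84% of all genes. The interleukin 6 receptor chain Il6ra differed by 1.65 ± 0.57 (0.99 without control array 3 and 0.87 averaged over probe sets), and the nucleolar protein Pes1 by 1.32 ± 0.36 (0.48 averaged likewise). Sesn3, a FOXO target that limits oxidative stress, was lower on every GFP-negative array, at 6.32, 6.35 and 6.17 against 7.60, 7.63 and 6.67 (a difference of -0.65 averaged over probe sets). Its list went the other way. Of 18 FOXO and antioxidant genes 13 were higher and 5 lower, with a median of 0.19 (-0.071 without control array 3).

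**Figure D5:**
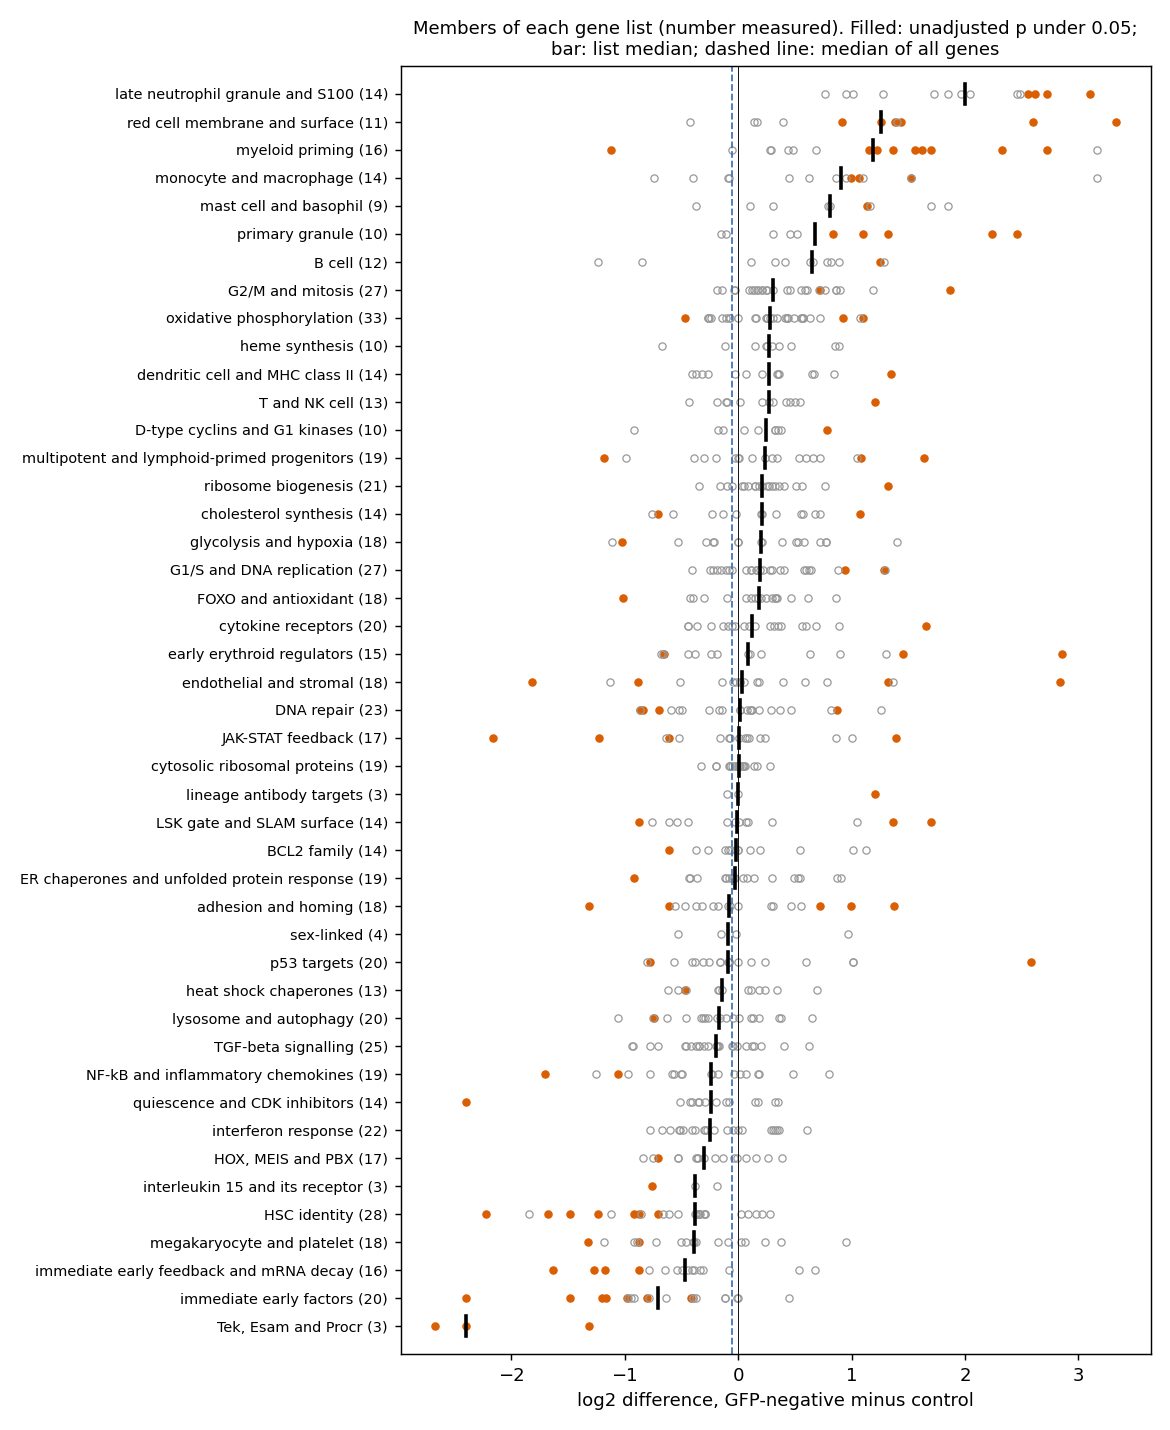
Each row is 1 of 45 gene lists (number of measured members in brackets), each point a member's log2 difference (GFP-negative minus control), filled where the unadjusted limma p was under 0.05. The bar is the list's median and the dashed line the median of all genes (-0.057); late neutrophil, red cell membrane and myeloid priming lists lie highest and the immediate early lists and Tek, Esam and Procr lowest.

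Genes of the sorting gate were measured as a check of the labels. Kit, the receptor by which LSK cells are gated, measured 8.73, 8.67 and 8.08 in controls and 8.02, 8.22 and 7.92 in GFP-negative cells. The progenitor genes Cd34 and Flt3 differed by 0.0047 ± 0.31 and -0.03 ± 0.23, at 9.66 to 9.92 and 8.79 to 9.10 in controls. Ptprc, the pan-leukocyte antigen CD45, stood at 9.89 to 10.52 on the 6 arrays. Of the lineage targets, Itgam (CD11b) measured 3.39 to 5.20 in controls and 3.68 to 4.62 in GFP-negative cells. Cd3e, a chain of the T cell receptor complex, was dim, at 2.63, 3.04 and 2.79 in controls and 4.77, 3.92 and 3.37 in GFP-negative cells. Ly6a was not analysed here. The SLAM marker Slamf1 was dim and overlapped between groups, at -0.61 ± 0.91. It ranged from -1.11 without control array 1 to -0.12 without control array 3.

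The GFP-positive cells of the same kind of mice give the nearest comparison. No probe set differed between GFP-positive and GFP-negative cells in limma (0 of 45037, 0%; smallest adjusted p 0.999925), with 591 higher (1.31%) and 644 lower (1.43%) in GFP-positive cells at an unadjusted p under 0.05. By gene, 238 were higher (1.31%) and 203 lower (1.12%), 441 together (2.42%). HSC identity genes averaged 5.98, 6.00 and 6.27 on the GFP-positive arrays, against 6.27 to 6.38 in GFP-negative cells. Red cell membrane genes averaged 6.13, 5.93 and 5.99 in GFP-positive cells, above the 5.52 to 5.87 of GFP-negative cells. Of the 24 genes chosen against control, 17 stood nearer to control in GFP-positive than in GFP-negative cells by group mean, and 7, among them Fcgr3 and Cadps2, stood further away. Cd302 measured 4.34, 4.57 and 4.87 and Pklr 6.79, 5.72 and 6.61 on the GFP-positive arrays, below all GFP-negative arrays. Tmbim1 measured 6.91, 6.03 and 6.98 and Bex1 7.09, 6.96 and 6.69, above all GFP-negative arrays. Procr measured 6.46, 7.05 and 6.09 in GFP-positive cells, also above all GFP-negative arrays and below all controls. These genes were chosen on the GFP-negative arrays, so their values in GFP-positive cells are a description without a test.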

How the data were processed

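RNA of 9 pools of sorted LSK cells, each from 2 to 5 mice, was amplified, labelled and hybridised to Affymetrix mouse expression arrays, per the labels' protocols. The deposited values are log2 RMA values per probe set, per the submitters' processing notes; the RMA version, background settings and genome build are not given in the sources used here. RMA quantile-normalizes arrays against each other and so hides a change common to most genes. The small number of arrays limits precision.

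Of 45101 probe sets 64 control probe sets were left out, and 45037 were tested with limma 3.58.1 (lmFit and eBayes in R 4.3.3), all 9 arrays in the fit and Benjamini-Hochberg adjustment over all. Probe sets with 1 gene numbered 34945 (34741 matched to RefSeq), with several 932 and with none 9160. Each gene was read from the brightest, on average over the 9 arrays, of its probe sets. Figures used matplotlib 3.10.9 in Python 3.11.15. Groups came from the titles, and p-values measure the spread between arrays of pooled mice. A permutation of 3 against 3 arrays cannot go below 0.1, so none was run. Data of this comparison were simulated with 45037 probe sets, 50 of them changed at each size. The errors were normal, with the same spread on every array. The adjusted test recovered 4% of differences of 1, 34% of 2, 72% of 3 and 72% of 4. It called 7 of 44837 unchanged probe sets. Recovery on the real arrays, which differ in weight, was not tested.

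As no gene passed the adjusted threshold, the rule for named genes took the 12 higher and 12 lower genes with the smallest p and no overlap of arrays, the 4 members of each list with the smallest p, and a fixed set. The members and the 45 lists (732 of 804 members measured) were chosen with earlier results of these data known. Genes named outside the rule, namely Csf1r, Dusp6, Egr2, Erg, Gadd45b, Gfi1, Kel, Myc, Myct1, Pf4, Prtn3, Rhag, Runx1 and Sptb, were chosen after their values were seen. Promoter windows, the 250 bases before a gene's start, came from RefSeq (GRCm38.p6). The identity of the transgene is not reported here.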

Additional observations from a re-analysis of the deposited data

How the results depend on the processing

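In every alternative tried, 0 probe sets passed the adjusted threshold of limma, also at 0.1 in place of 0.05. Genes lower at an unadjusted p under 0.05 numbered 311 with dim probe sets (below the 40th percentile) left out and 841 with array weights; at a threshold of 0.1, 784 genes were higher and 1013 lower. Leaving out 1 array at a time gave 721 to 1705 genes with all GFP-negative arrays above all controls and 1144 to 2937 below, since fewer arrays separate more easily. Leaving out control array 3 and GFP-positive array 2 together, an alternative added after seeing the data, gave 1705 and 2129. The median of the red cell membrane genes was 0.916 averaged over probe sets and 0.939 to 1.26 with 1 array left out.

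Genes with differences near 0 changed sign. Averaged over probe sets Ptprc was at 0.202, with array weights Flt3 was at 0.0205 and with the 2 arrays out together at 0.0096. Itgam was at -0.0326 after further quantile normalization and -0.0028 after centring, which put Cd34 at -0.00067. With 1 array left out, Cd34 ranged from -0.0499 to 0.0827, Flt3 from -0.141 to 0.113, Itgam from -0.35 to 0.555 and Ptprc from -0.273 to 0.0432. The cause was not tested.

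With the replicate number as a replicate block, 404 genes were higher and 430 lower at an unadjusted p under 0.05. Deviations of same-numbered arrays correlated at -0.27 to 0.09 over all groups, and at 0.09, -0.04 and -0.09 between GFP-negative and GFP-positive arrays. With 3 arrays a group such values cannot show whether arrays shared mice. As the labels state no pairing, arrays were treated as unpaired.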
